A study of Mus musculus with 16 samples.

Results

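The SLC25 family holds the carriers that move metabolites across the inner mitochondrial membrane. Its members exchange ADP for ATP, let phosphate, dicarboxylates, amino acids, acylcarnitines, cofactors and iron cross the membrane, and so tie the matrix to the cytosol of the hepatocyte. In liver, they feed the urea cycle with ornithine and aspartate, move malate and oxoglutarate between the compartments, and bring long-chain acylcarnitines to β-oxidation during fasting. The members were chosen by name, as all non-control probes of the array whose gene name starts with Slc25a, with Slc25a1 left out. This gave 102 of 56605 probes and 46 of 37074 gene names, and all 46 names matched a RefSeq symbol. The filter asked for a signal well above background on 5 or more arrays, which left 84 of these probes and 43 of the 46 genes, among 20400 genes of the whole array.

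Liver RNA was measured on 16 Agilent one-colour arrays, 1 per mouse. All mice were C57BL/6 males of 10 weeks, kept on normal chow (NC), never given antibiotics and killed after a 6 h fast. The paper states that they lived on an inverted light cycle and were dosed by weekly gavage. The 6 Conv + PBS mice received the vehicle, reduced PBS, although their labels call them not transplanted. The 5 Conv + LM mice received caecal content of lean donors fed NC, and the 5 Conv + OM(HFD) mice that of donors made obese with a high-fat diet, with the content of several donors pooled. Several mice shared a cage, and neither the cage of each mouse nor the hour at which it was killed is given in the sources used here, so that cage and inoculum cannot be told apart. Between 51.9% and 60.1% of the probes of an array were well above background, and no spot was saturated. All 6 hepatocyte markers were well above background on all 16 arrays. The summed level of 4 neutrophil markers ran from -0.41 to 4.94 in the Conv + PBS mice, from -0.45 to 0.60 in the Conv + LM mice and from -0.61 to 4.85 in the Conv + OM(HFD) mice. The number of arrays, not counts of molecules, limits the precision.

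Values below are on the log2 scale, relative to the 75th percentile of each array, so that 0 is a probe at that percentile. The brightest probe stood for a gene. The order of the members is an order of probe brightness, which depends on the probe as well as on the transcript. Among the 26 members with more than 1 passing probe, the probes of the same gene spanned a median of 3.05 and up to 8.53 (Slc25a42).

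The brightest member was Slc25a47, a carrier found mainly in liver, at 7.71 ± 0.15 (SD, n = 16). Slc25a39, a glutathione carrier, followed at 7.13 ± 0.07, and both gaps to the next member were larger than the SD. Slc25a51, which carries NAD, stood at 6.36 ± 0.39, and Slc25a5, the ADP/ATP carrier Ant2, at 6.17 ± 0.12, a gap within the spread. The phosphate carrier Slc25a3 (5.61 ± 0.18), the oxoglutarate/malate carrier Slc25a11 (5.61 ± 0.16), the CoA carrier Slc25a42 (5.49 ± 0.18), the ATP-Mg/phosphate carrier Slc25a25 (5.44 ± 0.15) and citrin, the aspartate/glutamate carrier Slc25a13 (5.39 ± 0.14), came next, with no gap between neighbours among them beyond the larger SD. The peroxisomal carrier Slc25a17 followed at 4.27 ± 0.19. In all, 14 of the 42 gaps between neighbours exceeded the larger SD of the pair, and 32 of the 43 members were brighter than the median of the 20400 genes that passed the filter (0.35).

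At the lower end were the ornithine carrier Slc25a2 (-2.46 ± 0.60), and Slc25a35 (-2.82 ± 0.57), Slc25a43 (-3.12 ± 0.54), Slc25a53 (-3.86 ± 0.81) and the glutamate carrier Slc25a18 (-4.61 ± 0.62), with gaps between neighbours that did not exceed the larger SD. Slc25a53 was well above background on 9 arrays and Slc25a18 on 5, the fewest that the filter allowed. For Slc25a31, the ADP/ATP carrier of male germ cells, and Slc25a54, 0 arrays showed a signal well above background, and for Slc25a41 1 array did. Slc25a35 and Slc25a43 were above it on 15 arrays, and the remaining 39 members on all 16. The range between mice differed widely among members. Slc25a39 had a range of 0.24 over 16 mice and Slc25a28, mitoferrin 2, one of 0.32, against 4.22 for Slc25a30.

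**Figure D1:**
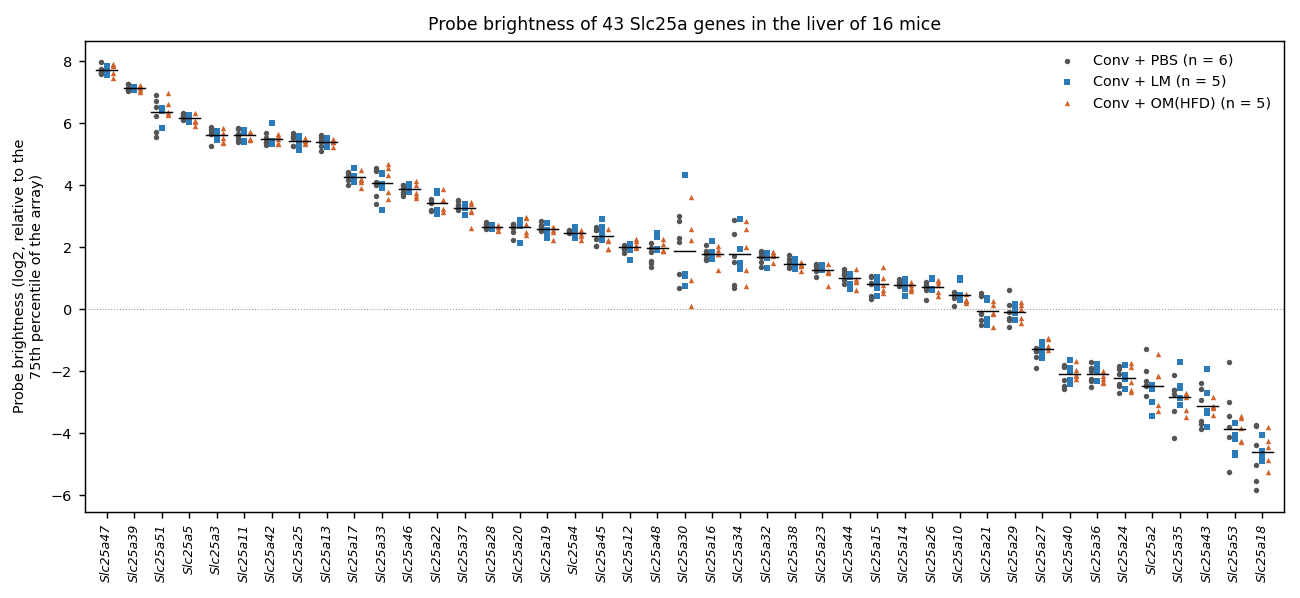
Probe brightness of the 43 Slc25a genes that passed the filter (vertical axis, log2 relative to the 75th percentile of each array), ordered by their mean over 16 mice (black bars). Each point is 1 mouse, marked by group. The means run from 7.71 for Slc25a47 to -4.61 for Slc25a18, and the points of Slc25a30 and Slc25a34 spread far more than those of their neighbours in every group.

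No member differed between inocula after adjustment, and neither did any gene of the array. In the comparison of Conv + OM(HFD) vs. Conv + PBS, 1 of 43 members (Slc25a27) had an unadjusted limma p under 0.05, where 3.25% of all genes tested had one. For Conv + LM vs. Conv + PBS it was 1 member (Slc25a48, background 3.88%), and for Conv + OM(HFD) vs. Conv + LM 2 members (Slc25a10 and Slc25a45, background 2.67%). These counts lie near the shares over all genes. By exact permutation tests over mice the numbers of members at this threshold were 1, 1 and 0, beside 3.15%, 3.88% and 3% of all genes. After Benjamini-Hochberg adjustment over all genes by limma, 0 members and 0 genes of the whole array passed in any comparison, and the smallest adjusted p among members was 0.998. The groups overlapped in all 43 members in each comparison, while they did not overlap in 0.23%, 0.279% and 0.436% of all genes. With the clock score described below as a covariate, a fit added after the data were seen, the members with an unadjusted limma p under 0.05 were 4 (Slc25a5, Slc25a27, Slc25a38 and Slc25a48, background 4.62%), 2 (Slc25a48 and Slc25a2, 5.24%) and 2 (Slc25a45 and Slc25a10, 2.78%). The median fold change of the members was -0.04, 0.00 and -0.01 on the log2 scale, beside -0.00, -0.01 and 0.00 over all genes. Of the members, 40, 38 and 37 differed by less than 0.25 in either direction. As the tissue was measured whole, fewer cells of a type and less RNA per cell cannot be told apart in any of these values.

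Slc25a27, also called uncoupling protein 4 and known mainly from brain, had a lowest value of -1.89, a median of -1.35 and a highest value of -1.24 in the Conv + PBS mice. In the Conv + OM(HFD) mice it was at -0.91, -0.96, -1.20, -1.30 and -1.18. The groups overlapped, and the Conv + PBS mice reached lower. The difference was 0.34 ± 0.12 (SE) by limma, with an unadjusted p of 0.0140 and an exact permutation p of 0.0108, and did not pass adjustment. Conv + LM mice lay between both groups at -1.29 ± 0.19 (SD, n = 5). The unadjusted limma p for Conv + OM(HFD) vs. Conv + PBS was 0.108 on slide 1 alone (0.27) and 0.110 on slide 2 alone (0.40). It stayed under 0.05 in 11 of the 13 settings tried, where the difference went down to 0.20. The values rest on 1 probe, as the other probes of the gene failed the filter, at -4.41 (4 arrays well above background) and -5.61 (0 arrays).

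Slc25a48, a carrier whose substrate long stayed unknown, was at 2.45, 2.32, 2.43, 1.91 and 1.95 in the Conv + LM mice. In the Conv + PBS mice its lowest value was 1.36, its median 1.71 and its highest value 2.12. The 3 highest Conv + LM mice exceeded all Conv + PBS mice. The difference was 0.49 ± 0.15 (SE), with an unadjusted limma p of 0.00552, an adjusted p of 0.998 and an exact permutation p of 0.0303. For the Conv + OM(HFD) mice, compared with the same Conv + PBS mice, the difference was 0.28 ± 0.15 (limma p = 0.0861, exact permutation p = 0.104). The unadjusted limma p of the latter fell under 0.05 with the other probe of the gene (0.47, p of 0.0150), with the mean of both probes (0.37, p of 0.0266), on the authors' processed values (0.31, p of 0.0337), with the clock score as a covariate (0.32, p of 0.0411) and without mouse 3 (0.36, p of 0.0287). It stayed at 0.05 or more in 10 of 14 other settings, with a lowest difference of 0.22 and a largest limma p of 0.280. Of the 16 mice left out in turn, only mouse 3 changed the side (lowest difference 0.20, largest limma p 0.208).

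Slc25a10, the dicarboxylate carrier, was at 0.20, 0.48, 0.31, 0.30 and 0.28 in the Conv + OM(HFD) mice. It was at 0.31, 1.01, 0.94, 0.42 and 0.47 in the Conv + LM mice, of which mice 14 and 15 stood apart. The difference was -0.32 ± 0.14 (SE; unadjusted limma p = 0.0324, adjusted 0.999; exact permutation p = 0.0635). Its unadjusted limma p was 0.05 or more when any of mice 14, 15, 25, 28, 29 and 30 was left out, with a difference of -0.22 (p of 0.101) without mouse 14 and of -0.24 (p of 0.0965) without mouse 15. Slc25a45 was at 2.58, 2.23, 1.94, 2.21 and 1.95 in the Conv + OM(HFD) mice and at 2.90, 2.52, 2.66, 2.24 and 2.43 in the Conv + LM mice, so that the groups overlapped. Its difference was -0.37 ± 0.16 (SE; unadjusted limma p = 0.0354, adjusted 0.999; exact permutation p = 0.0635). Its unadjusted limma p was 0.05 or more when any of mice 13, 15, 28, 29 and 30 was left out, with a difference of -0.28 (p of 0.102) without mouse 13. Both members passed the unadjusted threshold of limma and not that of the exact test.

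Members with large differences were often dim or variable, and their differences came with wide errors. The dim orphan carrier Slc25a53 differed by -0.71 for Conv + LM vs. Conv + PBS and by 0.39 for Conv + OM(HFD) vs. Conv + LM, and Slc25a35 by -0.47 in the latter, none of them with a p under 0.05. Slc25a2 differed by -0.58 ± 0.33 (SE) for Conv + LM vs. Conv + PBS (limma p = 0.0951, exact permutation p = 0.0714). Slc25a5 differed by -0.15 ± 0.08 for Conv + OM(HFD) vs. Conv + PBS (limma p = 0.0773, exact permutation p = 0.0606). Its unadjusted limma p fell under 0.05 with quantile normalization (-0.15, p of 0.0434), with the clock score as a covariate (-0.18, p of 0.0139) and without mouse 30. In 11 of the 13 settings tried it stayed at 0.05 or more (largest limma p 0.294). Slc25a36, a pyrimidine nucleotide carrier, differed by -0.27 ± 0.15 for Conv + OM(HFD) vs. Conv + LM (limma p = 0.0821, exact permutation p = 0.0714), a sign that its other probes did not share.

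**Figure D2:**
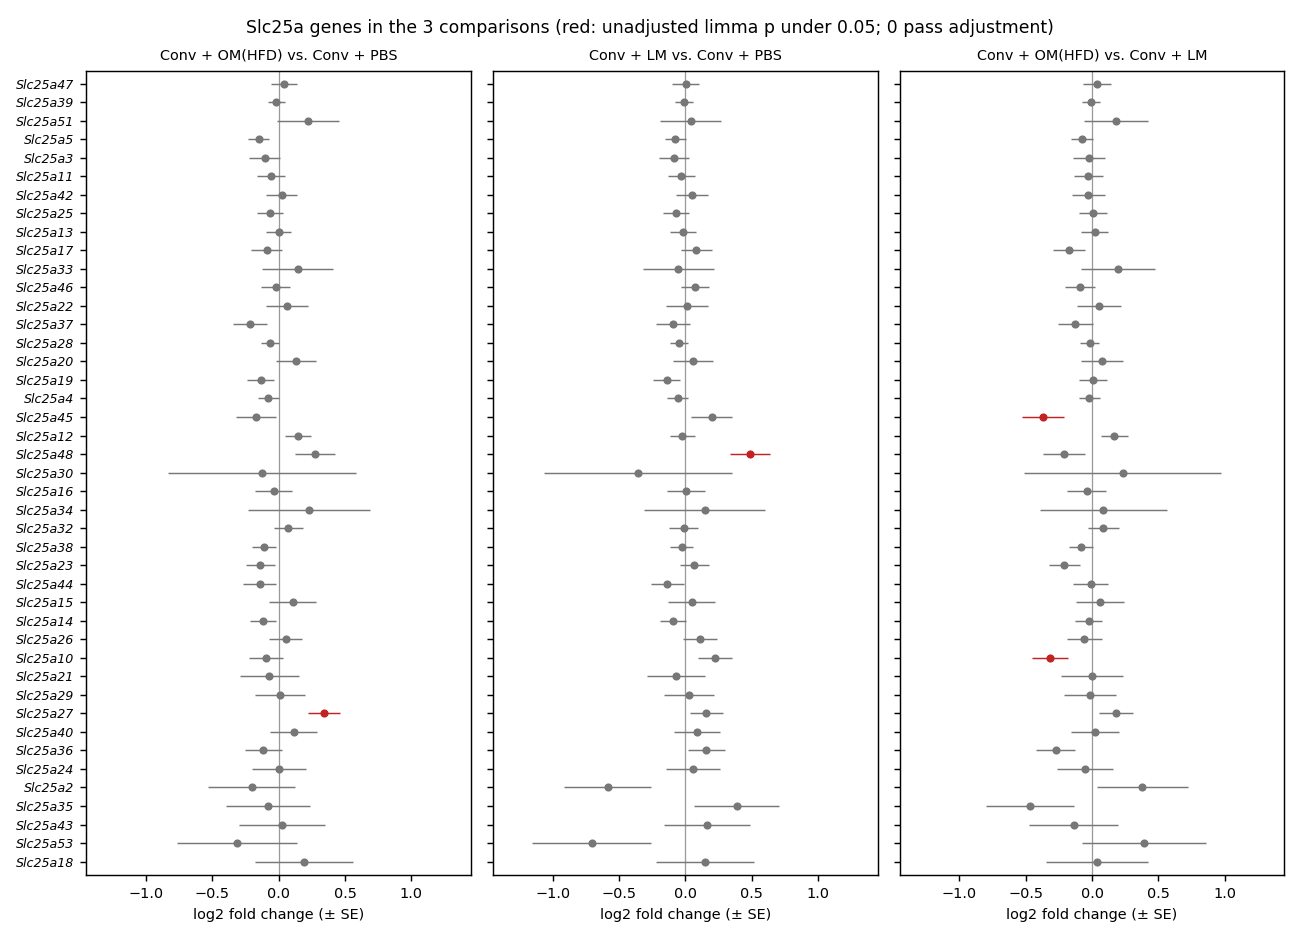
The log2 fold change of each of the 43 Slc25a genes (± SE from limma) in the 3 comparisons, in the order of probe brightness. Red marks an unadjusted limma p under 0.05, which 1, 1 and 2 members had, and the bars of most other members reach or nearly reach 0.

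Slc25a34, Slc25a20 and Slc25a47 had no unadjusted p under 0.05 in any comparison. Slc25a34, an orphan carrier, differed by 0.23 ± 0.46 (SE) for Conv + OM(HFD) vs. Conv + PBS, by 0.14 ± 0.46 for Conv + LM vs. Conv + PBS and by 0.09 ± 0.48 for Conv + OM(HFD) vs. Conv + LM. The carnitine/acylcarnitine carrier Slc25a20 differed by 0.13 ± 0.15, 0.06 ± 0.15 and 0.07 ± 0.16 in the same order. For Slc25a47 the differences were 0.04 ± 0.10, 0.00 ± 0.10 and 0.04 ± 0.11, the narrowest errors of the 3 members. The SD of Slc25a34 was 0.88 in the Conv + PBS mice, 0.66 in the Conv + LM mice and 0.88 in the Conv + OM(HFD) mice, against 0.15, 0.13 and 0.19 for Slc25a47.

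Within each group, the mice differed in the genes of the circadian clock and of the fasting response. The clock is a loop in which Arntl and Clock drive the genes of their own repressors, so that Arntl, Clock and Nfil3 are high when Dbp, Nr1d1, Nr1d2, Per3, Tef and Ciart are low. A clock score was taken for each mouse as the mean of the 3 former minus the mean of the 6 latter genes. A fasting score was the mean of 10 genes that rise on fasting, many of them targets of the fatty acid receptor PPARα, such as Pdk4 and Cpt1a. No Slc25a gene is part of either score, although all were read from the same arrays. The clock score had its lowest value at -2.14, its median at -1.15 and its highest value at 0.03 in the Conv + PBS mice. It was -2.31, -1.79, -1.03, -1.16 and 0.18 in the Conv + LM mice 13 to 17, and -2.09, -1.24, -1.26, -0.33 and 0.65 in the Conv + OM(HFD) mice 25, 26, 28, 29 and 30. All groups spanned about the same range, and the exact permutation p of the difference was 0.539 for Conv + OM(HFD) vs. Conv + PBS, 0.968 for Conv + LM vs. Conv + PBS and 0.563 for Conv + OM(HFD) vs. Conv + LM. The fasting score moved with the clock score (Pearson r = 0.95 and Spearman rho = 0.96 of the deviations from group means, n = 16, permutation p = 1e-05, the smallest that 100000 permutations can give; r = 0.97 without the 2 mice farthest from the median score). A slope on the clock score and one on the fasting score can therefore not be told apart.

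On the clock score, 9 of 43 members had an adjusted limma p under 0.05 in a fit with the group as a term, where 8.13% of all genes tested had one. Among the 17050 genes well above background on all 16 arrays, as 39 of the members were, the share was 10.6%, and 10.7% on the fasting score. For 8 of them (Slc25a34, Slc25a33, Slc25a30, Slc25a51, Slc25a20, Slc25a2, Slc25a38 and Slc25a42) the level rose with the score, beside 4.40% of all genes, and Slc25a37 fell, beside 3.73%. The same 8 members rose with the fasting score (9 members called, background 8.27% of all genes, 4.47% rising and 3.8% falling), where the member that fell was Slc25a45. The slope of Slc25a37 was -0.18 on either score (limma adjusted p = 0.0971 on the fasting score). Each called member had the same sign of slope in all 3 groups, and no slope of a member differed between groups after adjustment, where 0 of 20400 genes did on either score. At an unadjusted limma p under 0.05, 1 member differed on the clock score (Slc25a51, background 2.88%) and 0 on the fasting score (2.39%). Slc25a37 and Slc25a38 are named because their slopes on the clock score were called.

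Slc25a34 was the member with the smallest p on both scores. It ranged from 0.68 over a median of 1.61 to 2.88 in the Conv + PBS mice. It was at 1.39, 1.31, 1.49, 1.93 and 2.90 in Conv + LM mice 13 to 17, and at 0.75, 1.26, 2.01, 2.58 and 2.85 in the Conv + OM(HFD) mice in the order of their numbers. In each group the mouse with the highest clock score was the highest for Slc25a34. The slope was 0.81 ± 0.09 (SE) per unit of clock score (limma adjusted p = 0.000479), with Pearson r = 0.92 and Spearman rho = 0.90 of the deviations from group means (n = 16, permutation p = 1e-05 and 2e-05). Without the 2 mice farthest from the median score r was 0.90. Within the 8 mice of each slide r was 0.91 and 0.97. A dimmer probe of the same gene had a slope of 0.25 (limma adjusted p = 0.375 with every probe on its own), so that the call rests on the brighter probe.

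Slc25a33, a pyrimidine nucleotide carrier, ranged from 3.40 over 4.06 to 4.56 in the Conv + PBS mice. It was at 3.22, 3.90, 4.03, 4.35 and 4.40 in the Conv + LM mice and at 3.56, 3.78, 4.32, 4.67 and 4.54 in the Conv + OM(HFD) mice. The mouse with the lowest clock score of each transplanted group was also its lowest for Slc25a33. The slope was 0.43 ± 0.07 (SE; limma adjusted p = 0.00336), with r = 0.86 and rho = 0.85 (n = 16, permutation p = 0.00025 and 0.00028), and r = 0.89 without the 2 farthest mice.

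Slc25a30, kidney mitochondrial carrier 1, a relative of the uncoupling proteins, had the steepest slope of the family. It ranged from 0.69 over 2.24 to 3.02 in the Conv + PBS mice, and was at 0.74, 1.15, 1.08, 1.07 and 4.32 in the Conv + LM mice and at 0.10, 0.96, 2.24, 3.63 and 2.59 in the Conv + OM(HFD) mice. Conv + LM mouse 17 stood far above the other mice of its group. The slope was 1.13 ± 0.20 (SE; limma adjusted p = 0.00469), with r = 0.83 and rho = 0.84 (n = 16, permutation p = 0.0004 and 0.00053). Leaving out any 1 mouse gave slopes of 0.92 to 1.36 that kept an adjusted limma p under 0.05. The 4 probes of the gene that passed the filter had slopes of 0.76 to 1.16 per unit, of which 1 (0.77, limma adjusted p = 0.142 with every probe on its own) was not called.

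**Figure D3:**
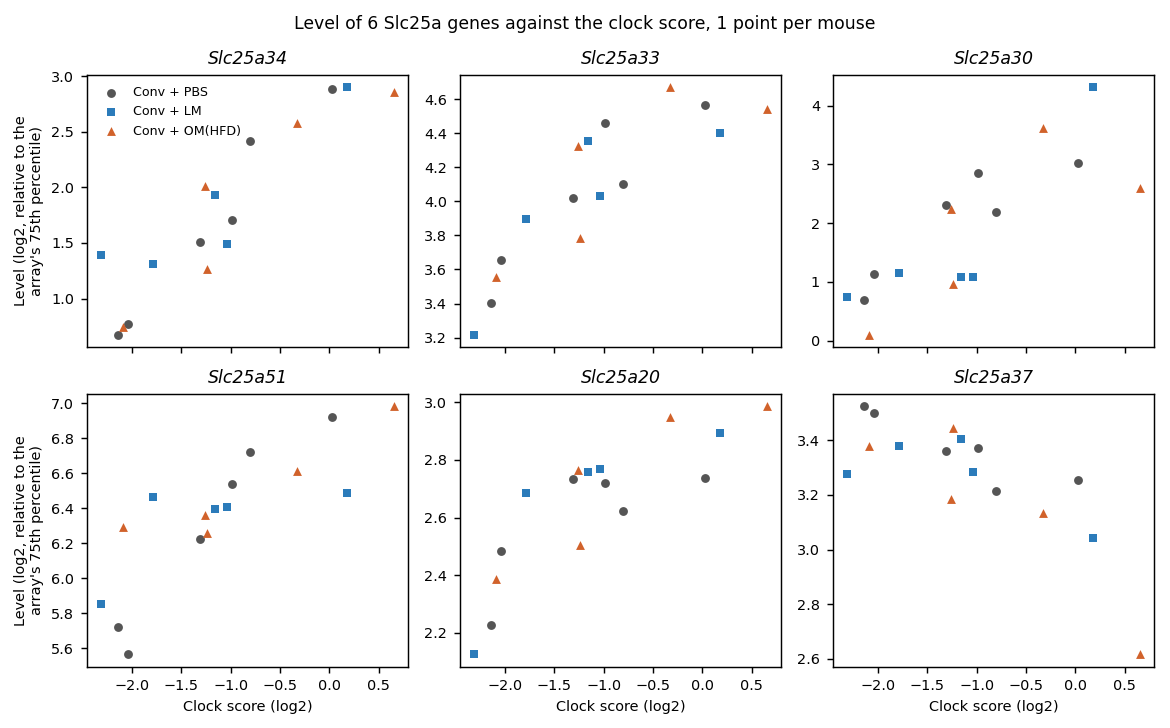
Level of 6 Slc25a genes (vertical axes, log2 relative to the 75th percentile of the array) against the clock score of the mouse (horizontal axis, log2), with 1 point per mouse marked by group. Slc25a34, Slc25a33, Slc25a30, Slc25a51 and Slc25a20 have a rising slope within every group, and Slc25a37 a falling one, with Conv + OM(HFD) mouse 30 as its lowest point at 2.62. In the Conv + LM mice, Slc25a51 is low in mouse 13 (5.85) and Slc25a37 in mouse 17 (3.04), with no steady trend among the others.

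Among the carriers of cofactors, Slc25a51 ranged from 5.57 over 6.38 to 6.92 in the Conv + PBS mice and was at 5.85, 6.47, 6.40, 6.40 and 6.48 in the Conv + LM mice and at 6.29, 6.26, 6.36, 6.61 and 6.98 in the Conv + OM(HFD) mice. Its slope was 0.36 ± 0.07 (SE; limma adjusted p = 0.00744), and its other probe rose by 0.53. Within groups the slope was 0.65 in Conv + PBS, 0.19 in Conv + LM and 0.27 in Conv + OM(HFD) mice. Slc25a42 rose by 0.16 ± 0.04 (limma adjusted p = 0.0275). That call was lost without mouse 2, 6, 13 or 17 (0.11 and an adjusted limma p of 0.115 without Conv + LM mouse 17, its highest mouse at 6.01) and, among other settings, on the authors' processed values (0.12, limma adjusted p = 0.133) and with the slide as a block (0.15, limma adjusted p = 0.0739). On the fasting score the call was lost without mouse 2, 6, 13, 17 or 29 (0.13, limma adjusted p = 0.105 without mouse 17), on the authors' processed values (0.14, limma adjusted p = 0.162), with normexp, quantile normalization or no filter on dim probes, and with the slide as a block (0.18, limma adjusted p = 0.0908). Its 2 dimmer probes had slopes of 0.33 and 0.40, the latter not called with every probe on its own (limma adjusted p = 0.0626).

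Slc25a20, which brings acylcarnitines to β-oxidation, ranged from 2.23 over 2.67 to 2.74 in the Conv + PBS mice and was at 2.13, 2.68, 2.77, 2.76 and 2.89 in the Conv + LM mice and at 2.39, 2.51, 2.76, 2.95 and 2.99 in the Conv + OM(HFD) mice. Its lowest mouse in each transplanted group was that with the lowest clock score. The slope was 0.23 ± 0.05 (SE; limma adjusted p = 0.00965), and 0.19 on the authors' processed values (limma adjusted p = 0.0544). Of the 9 amino acid carriers, Slc25a2 and the glycine carrier Slc25a38 rose, by 0.49 ± 0.11 (limma adjusted p = 0.0138) and 0.13 ± 0.03 (limma adjusted p = 0.0141), while the ornithine/citrulline carrier Slc25a15 had a slope of 0.00 ± 0.09. The Slc25a2 call was lost without Conv + OM(HFD) mouse 25 (limma adjusted p = 0.0525). The Slc25a38 call was lost with normexp background correction (0.12, limma adjusted p = 0.0668), on the authors' processed values (0.13, limma adjusted p = 0.0636) and with no filter on dim probes (0.15, limma adjusted p = 0.0831). Its fasting call was lost without mouse 25 (0.15, limma adjusted p = 0.0508) and with no filter on dim probes (0.15, limma adjusted p = 0.0761).

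Slc25a37, mitoferrin 1, which brings iron into mitochondria, ranged from 3.21 over 3.37 to 3.52 in the Conv + PBS mice, and was at 3.28, 3.38, 3.28, 3.40 and 3.04 in the Conv + LM mice and at 3.38, 3.45, 3.18, 3.13 and 2.62 in the Conv + OM(HFD) mice. In both transplanted groups the mouse with the highest clock score was the lowest. The slope was -0.18 ± 0.04 (SE; limma adjusted p = 0.0184), and the call was lost without mouse 17 (-0.19, limma adjusted p = 0.0501), 25 (-0.18, limma adjusted p = 0.0522) or 30 (-0.12, limma adjusted p = 0.0831). It was also lost with the mean over the probes of the gene (-0.10, limma adjusted p = 0.0874) and with no filter on dim probes (-0.22, limma adjusted p = 0.0748). Its other 3 probes had slopes of -0.19, -0.08 and 0.049, none called when every probe was tested on its own. Slc25a45 had a slope of -0.24 ± 0.07 on the fasting score (limma adjusted p = 0.0431), and one of -0.19 ± 0.06 on the clock score (limma adjusted p = 0.0556). The fasting call was lost when any of 10 of the 16 mice was left out (largest adjusted limma p 0.136), while the slope stayed between -0.27 and -0.21. It was also lost with no filter on dim probes (-0.24, limma adjusted p = 0.121), in its dimmer probe tested on its own (-0.24, limma adjusted p = 0.0604) and with the score without Cyp4a10, Cyp4a14 and Vnn1 (-0.27, limma adjusted p = 0.0519).

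By role, the slopes on the clock score of the 5 adenine nucleotide carriers that passed the filter lay between 0.01 and 0.09, and those of the 3 carboxylate carriers between -0.08 and -0.03, with no call on either score. At backgrounds of 8.13% and 8.27%, no call among so few members says nothing about a class. The phosphate carrier Slc25a3 had a slope of 0.12 ± 0.05 (limma adjusted p = 0.172). Slc25a25, which is known to be induced by cold and exercise, had one of 0.07 ± 0.05, and Slc25a47 one of 0.03 ± 0.05. Beside the family, Mtch2, a relative in the outer membrane, rose with both scores (1 of 4 measured family members under other names). Of 16 other mitochondrial membrane transporters measured, 2 were called on the clock score, beside 8.13% of all genes. These were Sfxn5, which fell with both scores, and Micu2, a regulator of calcium uptake, which fell with the clock score (limma adjusted p = 0.0357) and missed the threshold on the fasting score (limma adjusted p = 0.0502).

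**Figure D4:**
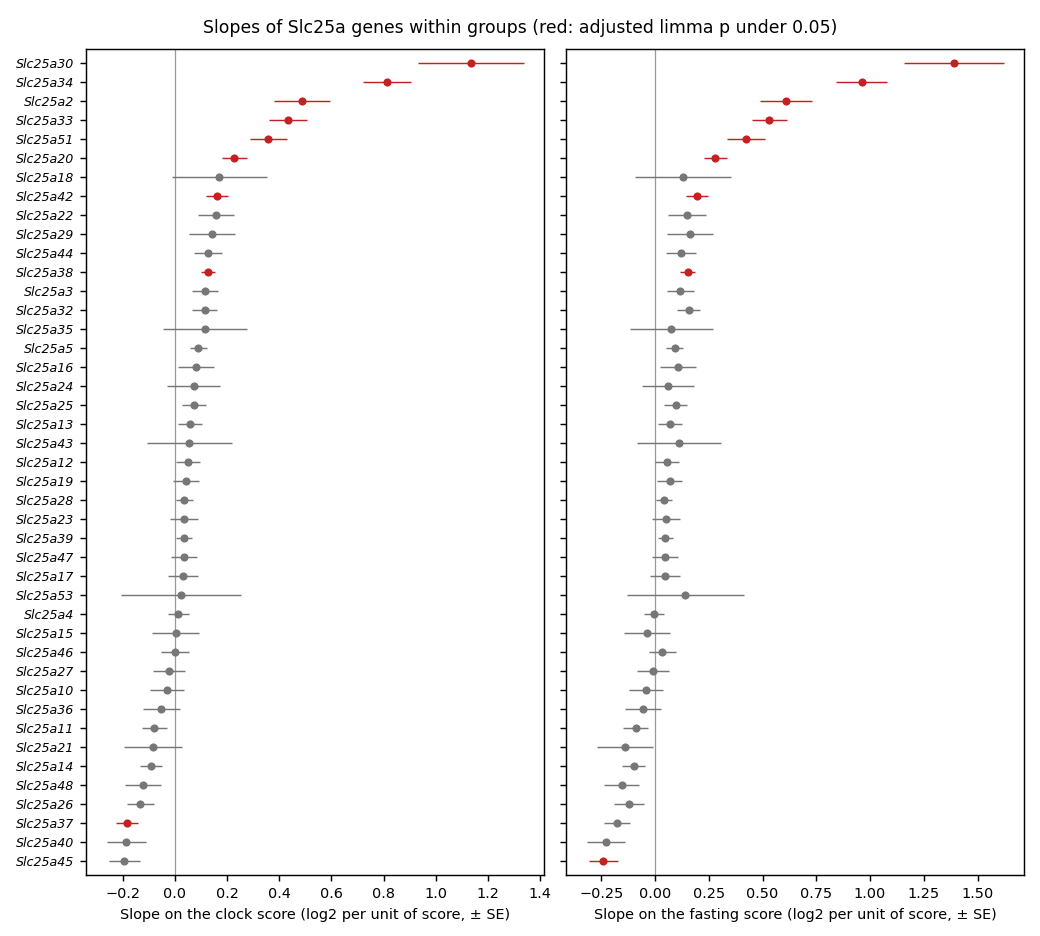
Slope of each of the 43 Slc25a genes on the clock score and on the fasting score (log2 per unit of score, ± SE from limma with the group as a term), ordered by the clock slope. Red marks an adjusted limma p under 0.05, which 9 members had on either score, and the slopes run from 1.13 for Slc25a30 to -0.19 for Slc25a45 on the clock score.

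The scores were compared with technical measures of the arrays. The clock score had r = -0.41 with the 75th percentile of intensity (rho = -0.47, n = 16, permutation p = 0.126 and 0.0795; r = -0.59 without the 2 farthest mice), and r = -0.01 with the percent of probes well above background (rho = -0.03, permutation p = 0.966 and 0.926; r = -0.23 without the 2 farthest mice). The 16 arrays lay on 2 slides of 8, each with mice of all groups, and the clock score was higher on slide 2 by 0.56 (exact permutation p = 0.211) and the fasting score by 0.62 (exact permutation p = 0.0942). All 9 members called on the clock score kept their sign within both slides, with r of 0.72 to 0.96 in size on slide 1 and 0.72 to 0.97 on slide 2. They had been called over these same 16 mice, so that the shared sign was largely set beforehand and does not test the part of the slide. With the slide as a block, 5.62% of all genes were called on the clock score, against 8.15% without it (genes of the score included). Hepatocyte markers had r = 0.42 with the clock score (rho = 0.49, permutation p = 0.128 and 0.0716; r = 0.57 without the 2 farthest mice). Neutrophil markers had r = -0.47 with the clock score (rho = -0.40, permutation p = 0.0872 and 0.116; r = -0.52 without the 2 farthest mice). Bile duct markers had r = 0.62 (rho = 0.57, permutation p = 0.0149 and 0.0379; r = 0.58 without the 2 farthest mice), with 4 of 4 markers passing the filter, 2 of them on all arrays, Sox9 called on the score and summed levels from -0.74 to 0.89 in the Conv + PBS mice, 0.05 to 0.66 in the Conv + LM mice and 0.02 to 0.93 in the Conv + OM(HFD) mice. The part of these in the slopes of the members was not tested.

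**Figure D5:**
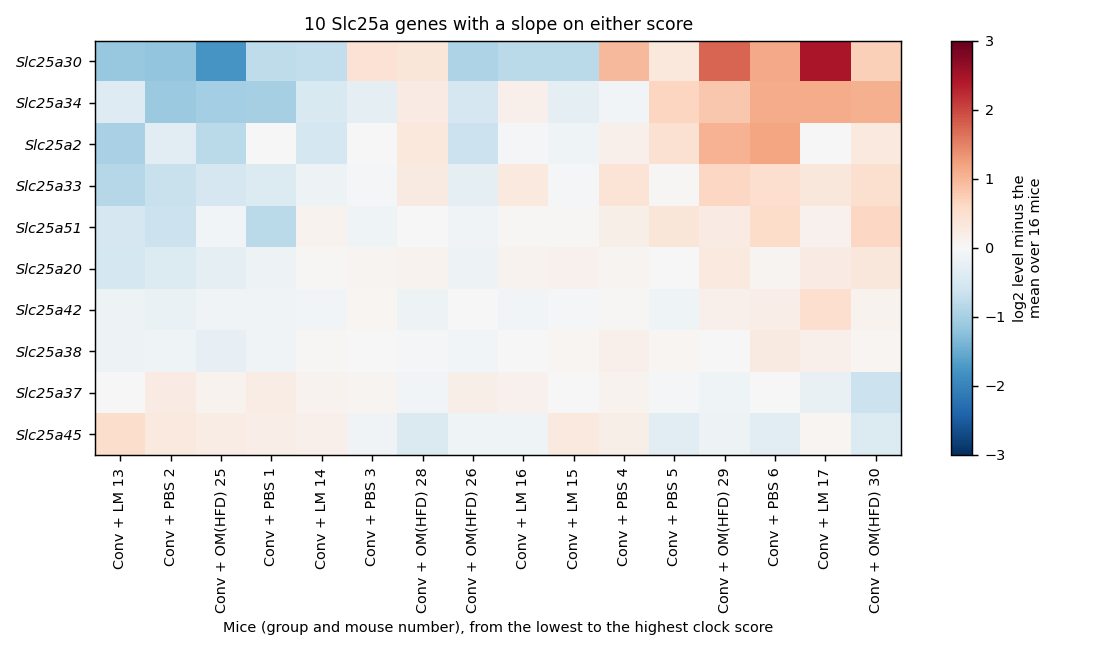
Level of the 10 Slc25a genes called on either score, as the log2 level minus the mean over 16 mice (colour), in each mouse ordered from the lowest to the highest clock score. Slc25a30 runs from -1.78 to 2.44 and Slc25a34 from -1.10 to 1.12, from blue on the left to red on the right, with mice of all groups mixed along the axis, and Slc25a37 and Slc25a45 run the other way over a smaller range.

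To show the DNA in front of members that rose together, the 250 bases before the start of Slc25a34, Slc25a33 and Slc25a30 were taken from RefSeq on GRCm38.p6. Windows of 300 bases (250 before and 50 after a start) were given for 35 of the 46 members, and for 7 of the 10 members called on either score. They were searched on both strands for the E-box CACGTG, which the Arntl and Clock proteins bind, the D-box TTATGNAA of Dbp and Nfil3, the cAMP response element TGACGTCA, and the DR1 element of PPARα, a pair of AGGTCA half-sites that lie 1 base apart. The single half-site AGGTCA, read by many nuclear receptors, was added after these sequences were seen. Capitals mark a match, and the half-site in front of Slc25a34 reads TGACCT on the strand shown.
Slc25a34 (chr4:141623835-141624084, minus strand): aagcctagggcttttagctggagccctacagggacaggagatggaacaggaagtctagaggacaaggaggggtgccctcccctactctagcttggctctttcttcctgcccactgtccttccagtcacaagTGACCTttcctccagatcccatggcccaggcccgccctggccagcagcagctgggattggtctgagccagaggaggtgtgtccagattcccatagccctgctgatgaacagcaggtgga
Slc25a33 (chr4:149774268-149774517, minus strand): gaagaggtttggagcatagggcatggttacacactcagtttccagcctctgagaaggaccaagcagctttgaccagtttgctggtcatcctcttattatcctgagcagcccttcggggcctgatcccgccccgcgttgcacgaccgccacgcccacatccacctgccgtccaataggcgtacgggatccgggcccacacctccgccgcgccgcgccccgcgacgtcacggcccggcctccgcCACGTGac
Slc25a30 (chr14:75787038-75787287, minus strand): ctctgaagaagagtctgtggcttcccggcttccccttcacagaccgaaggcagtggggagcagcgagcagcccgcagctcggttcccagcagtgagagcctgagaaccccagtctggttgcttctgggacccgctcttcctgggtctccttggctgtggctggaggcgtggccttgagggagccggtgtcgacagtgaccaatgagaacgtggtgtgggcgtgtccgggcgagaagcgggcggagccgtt
The E-box in front of Slc25a33 lies at positions -8 to -3 from the start. It was the only E-box in the 7 windows of the called members, against 7 of 45 windows of all members (15.6%) and 7.15% of all 32851 windows. The half-site in front of Slc25a34 lies at positions -119 to -114. It occurred in 2 of the 7 windows of called members (Slc25a34 and Slc25a45), in 4 of 45 windows of all members (8.89%) and in 16.3% of all windows. The D-box (3.39% of all windows), the cAMP response element (1.79%) and the DR1 element (0.0396%) were in none of the 7. The window of Slc25a30 held none of these letters. A match describes the letters only, and binding was not measured.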

How the data were processed

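The authors hybridized 1 Agilent array per mouse (16 mice) and read the spots with Agilent Feature Extraction 10.10.1.1. The deposited intensity values used here had had their background removed array by array, with no scaling from one array to another. The deposited table of log2 values, which tracks the quantile-normalized log2 median brightness of a spot, served as an alternative. Probe names and positions are those of the array design on mm9, and promoter sequences come from RefSeq on GRCm38.p6.

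Control and outlier spots were left out, spots of a probe were averaged, and log2 was taken minus the 75th percentile of the array. Probes well above background on at least 5 arrays were kept, and the brightest probe stood for a gene. Groups were compared, and slopes on the scores fitted with the group as a term, by lmFit and eBayes of limma 3.58.1 (R 4.3.3) over all genes in 1 fit of 16 mice, with Benjamini-Hochberg adjustment. Single members were also tested by exact two-sided permutation over mice, whose smallest p is 0.00216 for 5 against 6 mice and 0.00794 for 5 against 5. Correlations used deviations from group means and 100000 permutations within groups, two-sided, over 86 relations. Npas2, listed for the clock score, was above background on no array and was left out. Not every gene of the fasting score is named here. The fits were also run on simulated data with independent noise for each gene. As that noise shares no axis among genes and no slide effect, the run does not vouch for the slope calls. 

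The members, gene lists and scores were chosen with earlier results of these data known. Named members are those tied by general knowledge to fasting or the daily cycle, those with an unadjusted p under 0.05 or among the 3 smallest p in a comparison, the 10 brightest and 5 dimmest, and the 5 with the smallest p on each score. Alternatives were quantile normalization, normexp (offset 50), the deposited log2 values, other filters and probe rules, the slide as a block or alone, other scores and covariates, the methods' t-test (unpaired Student's) and leaving out each mouse.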

Additional observations from a re-analysis of the deposited data

Results flagged for a closer look

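Among 129 pairs of a member and a group, 4 had a mouse that stood far from the others of its group by Dixon's criterion, all of them in the Conv + LM mice. Chance alone gives about 1 in 20 such groups. Conv + LM mouse 13 was lowest for Slc25a20 at 2.13 (next mouse 2.68) and for Slc25a51 at 5.85 (next mouse 6.40). Conv + LM mouse 17 was highest for Slc25a30 at 4.32 (next mouse 1.15) and for Slc25a42 at 6.01 (next mouse 5.44). Mouse 13 had the lowest clock score of the 5 mice (-2.31) and mouse 17 the highest (0.18). The part of the score in these values was not tested.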

How the results depend on the processing

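With 16 mice and no gene past adjustment between groups, small differences between inocula were not detectable, and dim members (Slc25a18, Slc25a53) rest on few arrays above background. Of 788 alternative values of 27 results on single members, 784 kept their direction, and 642 also kept their side of the threshold. Leaving out 1 mouse at a time gave 1 to 2 members with an unadjusted p under 0.05 for Conv + OM(HFD) vs. Conv + PBS (2.72% to 4.19% of all genes), 1 to 2 for Conv + LM vs. Conv + PBS (3.37% to 4.91%), 0 to 4 for Conv + OM(HFD) vs. Conv + LM (2.31% to 3.76%), 7 to 10 called members on the clock score (4.34% to 8.27%) and 7 to 9 on the fasting score (4.45% to 8.14%). No paired analysis was possible because no mouse number occurs in more than 1 group.

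Beside each count stands the share of all genes (or probes) under the same setting. For Conv + OM(HFD) vs. Conv + PBS (1 member, 3.25%) the count became 2 with quantile normalization (3.25%) and 2 with the authors' log2 values (3.24%), 0 on slide 1 (3.82%) and 0 on slide 2 alone (2.17%), 4 with the mean over the probes of a gene (3.25%), 3 with every probe on its own (3.16%), and 4 with the clock score as a covariate (chosen after the data were seen, background 4.62%: Slc25a5, Slc25a27, Slc25a38 and Slc25a48). For Conv + LM vs. Conv + PBS (1 member, 3.88%) it became 3 with every probe on its own (3.85%), 2 with the clock score as a covariate (background 5.24%: Slc25a48 and Slc25a2) and 2 with only the mice of the groups compared (3.68%). For Conv + OM(HFD) vs. Conv + LM (2 members, 2.67%) it became 1 on slide 1 (5.01%), 0 on slide 2 (1.96%), 4 with every probe on its own (2.69%), 1 with only the mice of the groups compared (2.81%) and 0 with the methods' t-test (2.87%). That test gave 608, 746 and 586 genes at p under 0.05 over the whole array in the 3 comparisons and 0 after Benjamini-Hochberg adjustment.

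The 9 called members on the clock score became 0 within slide 1, 0 within slide 2 and 0 with the fasting score as a second covariate, and the 9 on the fasting score became 0 within slide 1, 0 within slide 2 and 0 with the clock score as a covariate, where 0 genes of the whole array were called either. Each slide alone holds 8 mice, and the scores have r = 0.95 with each other. On the clock score, the slope of Slc25a34 was 0.79 and 1.03 within slides 1 and 2, and 0.55 with the fasting score as a covariate. That of Slc25a33 was 0.38, 0.41 and 0.13 in the same order, and that of Slc25a37 was -0.26, -0.18 and -0.43. These settings were chosen after the data were seen. Slc25a36 for Conv + OM(HFD) vs. Conv + LM turned to 0.33 with the mean of its probes and to 0.78 and 0.48 in 2 of its other probes, and Slc25a37 on the clock score to 0.049 in another probe. The cause was not tested.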
